A study of Arabidopsis thaliana with 21 samples.

Results

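The mRNA of dxo1-2 rosette leaves was compared with that of Col-0 rosette leaves at 16 days in Arabidopsis thaliana. The members were the genes whose mean over these 6 libraries reached 1 FPKM, which were 18362 of the 33602 genes in the deposited mRNA table. The threshold cut through a continuum, with 196 members from 1 to 1.1 FPKM and 162 genes left out from 0.9 to 1 FPKM. Of the members, 596 reached a mean of 1 FPKM in dxo1-2 but not in Col-0, and 279 in Col-0 but not in dxo1-2. FPKM is the number of sequenced fragments per kilobase of transcript, scaled by the depth of the library. The series holds 21 samples, of which 9 are mRNA libraries and 12 are small RNA libraries, and the 6 libraries used here were 3 of dxo1-2 and 3 of Col-0, with 3 libraries labelled dxo1-1, of the same tissue and age, in a closing comparison. dxo1-2 is a mutant line of DXO1 (AT4G17620), and Col-0 is the wild-type accession. All plants were grown on agar plates with sucrose for 5 days and then in soil, with 16 h of light per day. The labels describe neither the lesion of the dxo1-2 allele nor whether each replicate was grown apart, so the p-values rest on the spread between libraries, which may be technical. Each library held mRNA of whole leaves, in which fewer cells of a type and less RNA per cell cannot be told apart.

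DXO enzymes take noncanonical caps, among them an NAD cap, off the 5′ end of RNA and degrade RNA from that end. Per the series title, the Arabidopsis enzyme removes NAD caps, acts as an exonuclease and has pleiotropic roles in gene regulation. Salicylic acid is a hormone of plant immunity whose synthesis begins in the chloroplast and which acts through the receptor NPR1 and raises pathogenesis-related genes. It is known to act with a second signal, N-hydroxypipecolate, and its pathway is commonly opposed to growth, photosynthesis and the jasmonate pathway.

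Differences are given on the log2(FPKM + 1) scale, as dxo1-2 minus Col-0, with adjusted p from limma over all 18362 genes. This scale understates the change of genes at low FPKM. A value after a gene that carries no unit is such a log2 difference, and means are given ± SD (n = 3 in each group). A gene passed at an adjusted p under 0.05. With replicates this close (the median SD of a gene was 0.08 in dxo1-2 and 0.10 in Col-0 on the log2 scale), 9361 genes (51%) were higher and 3916 (21.3%) were lower. A difference of at least 2-fold, a log2 difference of 1, was reached by 2834 higher genes (15.4%) and 608 lower genes (3.31%). The 3 dxo1-2 libraries lay above all 3 Col-0 libraries at 52.6% of genes and below them at 22.6%. The median of all genes was shifted by 0.25. After each library was centred on its median log2 value, this median was -0.11, and 5805 genes (31.6%) were higher and 7846 (42.7%) lower, at least 2-fold 1559 (8.49%) and 1458 (7.94%). Quantile normalization gave 6031 (32.8%) higher and 7434 (40.5%) lower, at least 2-fold 1622 (8.83%) and 1337 (7.28%). Which side held more of the genes that passed thus turned with the scaling, while at least 2-fold the higher genes outnumbered the lower ones as deposited, when centred and after quantile normalization. The counts of each gene group as deposited are to be read beside the 51% higher and 21.3% lower of all genes. Counts at least 2-fold are to be read beside 15.4% and 3.31%. Each group is also given with its counts in centred libraries, to be read beside 31.6% higher and 42.7% lower there. At least 2-fold, the shares there are 8.49% and 7.94%. The steps between low FPKM values put the depth at about 18400000 to 19600000 fragments in the dxo1-2 libraries and 17600000 to 19300000 in the Col-0 libraries.

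**Figure D1:**
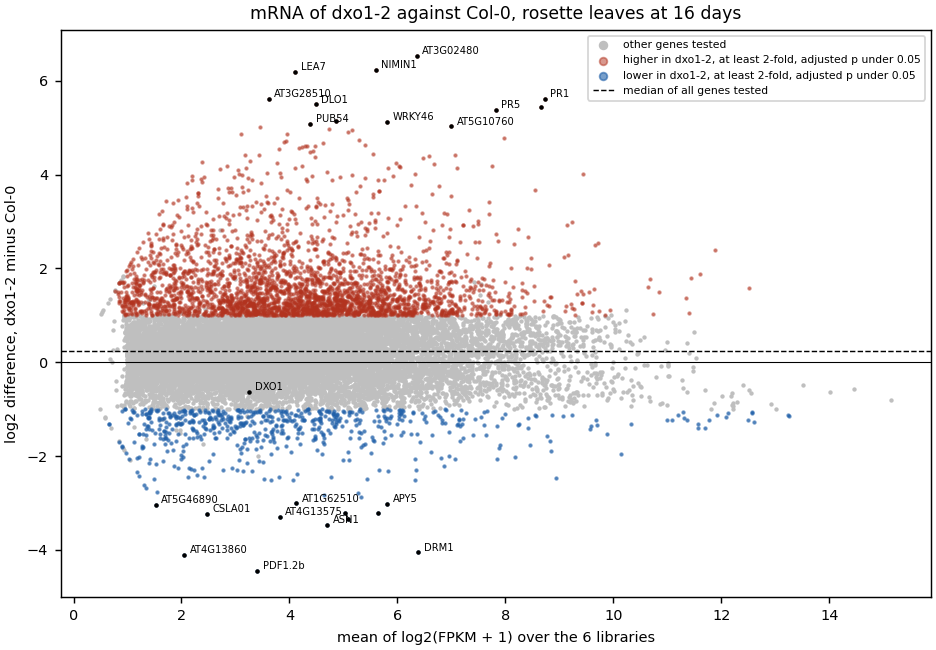
Log2 difference of each of the 18362 genes, dxo1-2 minus Col-0 (y axis), against its mean log2(FPKM + 1) over the 6 libraries (x axis). Red points are higher and blue points lower at least 2-fold with an adjusted p under 0.05, and the dashed line is the median of all genes at 0.25. DXO1 and most of the 12 highest and 12 lowest genes are labelled, and the 2834 red points outnumber the 608 blue ones.

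DXO1 itself was lower in dxo1-2. It stood at 6.67, 5.88 and 7.64 FPKM in dxo1-2, against 10.04, 11.97 and 10.77 FPKM in Col-0 (log2 difference -0.63, SE 0.10, adjusted p = 0.000401). The groups did not overlap, the mean was 1.62-fold lower in dxo1-2, and DXO1 mRNA was detected in every dxo1-2 library. The log2 difference of DXO1 was -0.98 in centred libraries and -0.95 after quantile normalization. A value per gene does not show from where along the transcript its fragments came. Of its neighbours by the RefSeq order of genes, AT4G17616 stood at 5.04, 4.96 and 4.67 FPKM in dxo1-2, against 3.3, 3.96 and 4 FPKM in Col-0 (log2 difference 0.31, SE 0.10, adjusted p = 0.0165), a difference that was -0.04 in centred libraries and did not pass without dxo1-2 replicate 1 (0.29, adjusted p = 0.052) or Col-0 replicate 1 (0.24, adjusted p = 0.0556). CKB2, a regulatory subunit of casein kinase II, did not pass (38.53, 38.76 and 42.28 FPKM in dxo1-2, against 35.03, 37.87 and 37.3 FPKM in Col-0, log2 difference 0.11, SE 0.06, adjusted p = 0.113, -0.24 when centred).

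The 12 highest differences, taken among genes that passed with groups that did not overlap, ran from 5.03 to 6.53. AT3G02480 stood at 791.08, 837.42 and 736.84 FPKM in dxo1-2, against 9.37, 5.13 and 8.74 FPKM in Col-0. NIMIN1, whose product binds NPR1, stood at 405, 412.9 and 437.56 FPKM in dxo1-2, against 4.33, 4.67 and 4.71 FPKM in Col-0 (log2 difference 6.23, SE 0.06, adjusted p = 6.46e-12). LEA7, of the late embryogenesis abundant proteins that accumulate in drying tissue, stood at 151.81, 147.79 and 140.33 FPKM in dxo1-2, against 0.65, 1.3 and 1.16 FPKM in Col-0 (log2 difference 6.19, SE 0.12, adjusted p = 3e-10). The genes of the secreted pathogenesis-related proteins PR1 and PR5 were among the 12 at 49.8-fold and 42.8-fold of their mean FPKM in Col-0. PCR1, of a family named for cadmium resistance, reached 2789.24, 2726.21 and 2545.67 FPKM in dxo1-2, against 60.96, 64.21 and 56.11 FPKM in Col-0. PUB54, of the plant U-box family of ubiquitin ligases, stood at 107.13, 128.64 and 125.96 FPKM in dxo1-2, against 2.71, 2.59 and 2.49 FPKM in Col-0. AT5G10760, which RefSeq lists as APOPLASTIC, EDS1-DEPENDENT 1, stood at 744.96, 719.13 and 728.38 FPKM in dxo1-2, against 21.66, 21.22 and 21.4 FPKM in Col-0. DLO1 and WRKY46 are described with their groups. AT3G28510 (84.8 ± 2.87 FPKM in dxo1-2, against 0.767 ± 0.24 FPKM in Col-0) and AT4G39670 (172 ± 7.2 FPKM in dxo1-2, against 4.07 ± 1.41 FPKM in Col-0) completed the 12 and carry no name in the files.

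The 12 lowest differences, taken by the same rule, ran from -4.45 to -3.01. DRM1, a gene associated with dormancy, stood at 16.41, 18.67 and 24.36 FPKM in dxo1-2, against 348.98, 348.34 and 324.96 FPKM in Col-0 (log2 difference -4.05, SE 0.12, adjusted p = 3.57e-09). ASN1, an asparagine synthetase induced in darkness and sugar shortage, stood at 6.48, 6.63 and 7.39 FPKM in dxo1-2, against 84.08, 89.1 and 84.31 FPKM in Col-0 (log2 difference -3.47, SE 0.06, adjusted p = 3e-10). AAP2, a permease that moves amino acids in the phloem, stood at 9.42, 9.89 and 9.62 FPKM in dxo1-2, against 97.5, 100.6 and 96.27 FPKM in Col-0. THI2.2, a thionin (a small antimicrobial peptide), stood at 17.19, 13.65 and 15.34 FPKM in dxo1-2, against 154.13, 150.26 and 148.34 FPKM in Col-0. APY5, of the apyrase family that hydrolyses nucleotides, stood at 18.76, 19.38 and 18.13 FPKM in dxo1-2, against 158.96, 160.71 and 157.61 FPKM in Col-0, with a gap between groups far above the spread within them. CSLA01, of the cellulose synthase-like A family of mannan synthases, stood at 0.73, 0.85 and 0.87 FPKM in dxo1-2, against 15.22, 17.06 and 16.22 FPKM in Col-0. AT1G13650 averaged 9.59 ± 0.121 FPKM in dxo1-2, against 107 ± 13.7 FPKM in Col-0, AT4G13575 averaged 3.66 ± 1.45 FPKM in dxo1-2, against 43.4 ± 3.68 FPKM in Col-0 and AT1G62510 averaged 5.15 ± 0.388 FPKM in dxo1-2, against 48.5 ± 3.37 FPKM in Col-0. AT4G13860 was listed at 0 in the 3 dxo1-2 libraries, against 21.65, 15.59 and 12.45 FPKM in Col-0, and AT5G46890 was listed at 0 there against 8.7, 6.41 and 6.73 FPKM. AT4G13860, of 264 bases, and the defensin gene PDF1.2b, of 274 bases, are shorter than the mean fragment lengths estimated below, so their levels are uncertain. Of the genes of up to 300 bases, 16.4% were lower at least 2-fold, beside 3.31% of all genes. PDF1.2b also has close copies, which adds to the uncertainty. It was listed at 0, 10.68 and 0 FPKM in dxo1-2, against 80.71, 59.27 and 23.81 FPKM in Col-0 (log2 difference -4.45, SE 0.86, adjusted p = 0.00115).

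**Figure D2:**
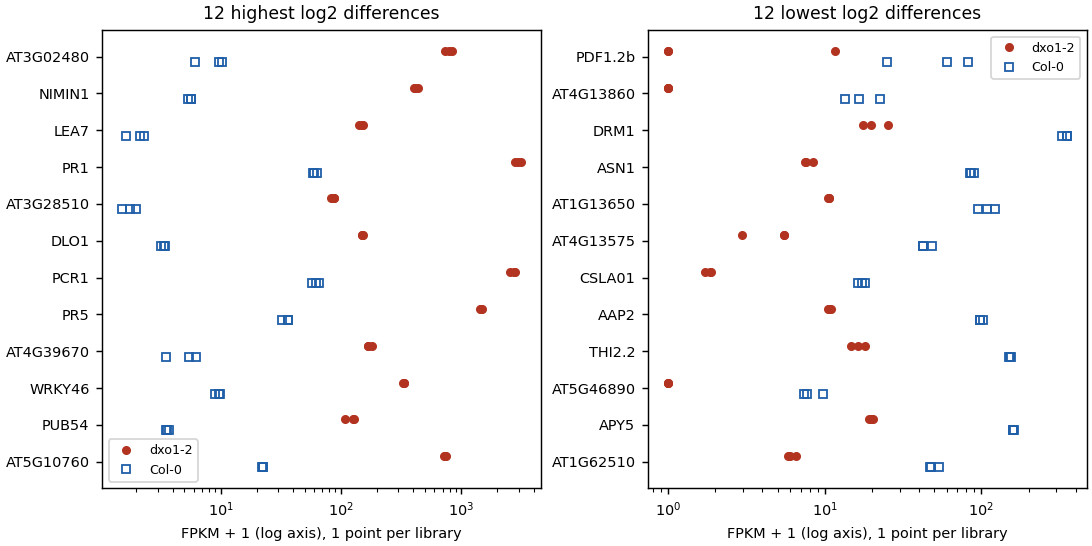
FPKM + 1 on a log axis in each dxo1-2 library (filled red circles) and each Col-0 library (open blue squares) for the 12 genes with the highest (left) and the 12 with the lowest (right) log2 difference. The genes were chosen among those that passed with groups that did not overlap. PDF1.2b spreads within both groups, from 0 to 10.68 FPKM in dxo1-2 and from 23.81 to 80.71 FPKM in Col-0.

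Genes that make salicylic acid and N-hydroxypipecolate were higher in dxo1-2. Of 17 tested members of the 18 on this list, 17 were higher, 15 of them at least 2-fold. Of all genes 51% and 15.4% were. The list had a median difference of 2.9 beside 0.25 for all genes. In centred libraries 15 were higher, all 15 at least 2-fold, and 1 lower (median 2.55). ICS1, the isochorismate synthase that opens the main route to salicylic acid, stood at 96.36, 92.59 and 92.85 FPKM in dxo1-2, against 11.57, 12.64 and 10.93 FPKM in Col-0 (log2 difference 2.9, SE 0.06, adjusted p = 7.18e-10). EDS5, which exports isochorismate from the chloroplast, averaged 71.9 ± 2.96 FPKM in dxo1-2, against 7.51 ± 0.449 FPKM in Col-0. PBS3, which joins isochorismate to glutamate, stood at 91.3, 91.17 and 93.49 FPKM in dxo1-2, against 2.42, 2.83 and 3.33 FPKM in Col-0 (log2 difference 4.6, SE 0.09, adjusted p = 3.13e-10), and EPS1, which acts on the product of PBS3, averaged 8.66 ± 0.829 FPKM in dxo1-2, against 1.5 ± 0.53 FPKM in Col-0. EDS1, an immune regulator that forms complexes with PAD4 or with SAG101, was higher together with both. PAD4 stood at 273.62, 272.51 and 271.8 FPKM in dxo1-2, against 13.35, 13.91 and 12.73 FPKM in Col-0 (log2 difference 4.26, SE 0.05, adjusted p = 2.71e-11), while EDS1 itself averaged 115 ± 3.75 FPKM in dxo1-2, against 15.2 ± 0.886 FPKM in Col-0 and SAG101 40.1 ± 2.46 FPKM in dxo1-2, against 11.3 ± 0.478 FPKM in Col-0. The transcription factor genes SARD1 and CBP60G, known to activate ICS1, had differences of 2.78 and 2.85.

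Genes of the route to N-hydroxypipecolate were higher too. ALD1, its first enzyme, stood at 31.04, 30.48 and 29.83 FPKM in dxo1-2, against 2.21, 2.15 and 2.04 FPKM in Col-0 (log2 difference 3.33, SE 0.07, adjusted p = 5.97e-10). FMO1, which makes the hydroxylated product, stood at 15.91, 14.4 and 14.62 FPKM in dxo1-2, against 0.63, 0.66 and 0.47 FPKM in Col-0 (log2 difference 3.33, SE 0.10, adjusted p = 3.82e-09). AT5G52810, also on the list, averaged 158 ± 5.37 FPKM in dxo1-2, against 12.8 ± 1.18 FPKM in Col-0. Genes that modify salicylic acid were higher as well. DLO1, a hydroxylase of salicylic acid, had the largest difference of the list and stood at 152.98, 148.37 and 149.87 FPKM in dxo1-2, against 2.2, 2.37 and 2.48 FPKM in Col-0 (log2 difference 5.5, SE 0.06, adjusted p = 1.82e-11). DMR6, another such hydroxylase, averaged 351 ± 5.23 FPKM in dxo1-2, against 37.7 ± 2.3 FPKM in Col-0. UGT76B1, a glucosyltransferase of salicylic acid and related immune compounds, averaged 16.9 ± 1.05 FPKM in dxo1-2, against 2.22 ± 0.264 FPKM in Col-0. BSMT1, which makes the methyl ester, averaged 2.84 ± 0.781 FPKM in dxo1-2, against 1.43 ± 0.267 FPKM in Col-0 (log2 difference 0.65, SE 0.17, adjusted p = 0.00612), and did not pass in centred libraries (0.29, adjusted p = 0.166). The smallest difference was at UGT74F2, another salicylic acid glucosyltransferase (0.16), which turned to -0.20 in centred libraries and did not pass without dxo1-2 replicate 2 (0.13, adjusted p = 0.0655).

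Of 24 genes of salicylic acid perception and output, 23 were higher, 20 at least 2-fold (median 2.03), beside 51% and 15.4% of all genes. When centred 23 were higher, 15 at least 2-fold, beside 31.6% and 8.49% of all genes. The receptor genes had smaller differences than the pathogenesis-related genes. NPR1 stood at 50.22, 48.17 and 50.8 FPKM in dxo1-2, against 16.2, 19.39 and 17.93 FPKM in Col-0 (log2 difference 1.43, SE 0.07, adjusted p = 9.81e-08), NPR3 had a difference of 1.32 and NPR4 of 1.08. The TGA factors that bind DNA with NPR1 had differences of 1.19 (TGA3), 1.04 (TGA5), 0.65 (TGA1) and 0.60 (TGA2), and TGA6 did not pass (0.32, adjusted p = 0.0506). WRKY factors spanned a wide range. WRKY46 stood at 333.56, 335.22 and 327.22 FPKM in dxo1-2, against 8.78, 7.95 and 8.82 FPKM in Col-0, WRKY38 averaged 87.8 ± 4.16 FPKM in dxo1-2, against 2.73 ± 0.286 FPKM in Col-0, WRKY54 averaged 104 ± 3.22 FPKM in dxo1-2, against 5.31 ± 0.394 FPKM in Col-0 and WRKY70 averaged 681 ± 6.05 FPKM in dxo1-2, against 62.7 ± 2.72 FPKM in Col-0. WRKY53, WRKY40 and WRKY33 differed by 1.98, 1.41 and 1.17. Among NPR1-binding proteins NIMIN1 (6.23) exceeded NIMIN-2 (3.75) and NIMIN-3 (0.79). PR2, a glucanase gene, stood at 1349.03, 1313.61 and 1326.82 FPKM in dxo1-2, against 42.74, 49.95 and 48.75 FPKM in Col-0. PR1 stood at 2825.73, 3117.76 and 2973.98 FPKM in dxo1-2, against 58.89, 62.55 and 57.69 FPKM in Col-0. PR5 stood at 1483.08, 1465.69 and 1428.16 FPKM in dxo1-2, against 35.09, 35.42 and 31.65 FPKM in Col-0, and at all 3 pathogenesis-related genes the groups were far apart.

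MAP kinase genes of immune signalling were higher as well. Of 14 genes of the MAP kinase cascade, the oxidative burst and the SUMM2 pathway, 13 were higher, 8 at least 2-fold. Of all genes 51% and 15.4% were. The list median was 1.36 (11 higher and 1 lower when centred). MPK11 stood at 51.45, 59.75 and 56.75 FPKM in dxo1-2, against 2.81, 4.25 and 3.86 FPKM in Col-0 (log2 difference 3.63, SE 0.12, adjusted p = 7.03e-09). MKK2 averaged 152 ± 3.74 FPKM in dxo1-2, against 32.8 ± 2.89 FPKM in Col-0, MKK4 34.7 ± 2.37 FPKM in dxo1-2, against 9.79 ± 1.64 FPKM in Col-0 and MPK4 117 ± 2.08 FPKM in dxo1-2, against 40.6 ± 2.99 FPKM in Col-0. The closely related MPK3 and MPK6 differed by 1.47 and 0.76. RBOHD, the NADPH oxidase of the immune oxidative burst, differed by 0.55. SUMM2, an immune receptor gene that monitors the MPK4 pathway, did not pass (3.75, 3.61 and 3.82 FPKM in dxo1-2, against 3.94, 4.09 and 4.84 FPKM in Col-0, adjusted p = 0.178), although it was called lower in centred libraries (-0.51). CRCK3, whose product acts with SUMM2, averaged 27.2 ± 0.899 FPKM in dxo1-2, against 10.0 ± 0.587 FPKM in Col-0 (log2 difference 1.36, SE 0.07, adjusted p = 9.74e-08).

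Chaperones of the endoplasmic reticulum, where secreted proteins fold, were higher. Of 19 genes of folding and the unfolded protein response 18 were higher, 14 at least 2-fold, beside 51% and 15.4% of all genes. The list median was 1.5 (17 higher and 1 lower when centred). BIP3, the stress-induced form of the main lumenal chaperone, stood at 33.38, 31.8 and 32.17 FPKM in dxo1-2, against 1.04, 1.42 and 0.82 FPKM in Col-0 (log2 difference 4.01, SE 0.11, adjusted p = 2.46e-09). ERDJ3A, a co-chaperone, averaged 19.5 ± 0.217 FPKM in dxo1-2, against 1.43 ± 0.0289 FPKM in Col-0. CRT3, a calreticulin needed for the folding of immune receptors, averaged 419.8 ± 3.49 FPKM in dxo1-2, against 70.0 ± 5.3 FPKM in Col-0 (log2 difference 2.57, SE 0.06, adjusted p = 6.79e-10). BIP1 and BIP2, which are near-identical and so of uncertain split, averaged 245 ± 8.48 FPKM in dxo1-2, against 74.2 ± 5.75 FPKM in Col-0 and 292 ± 7.72 FPKM in dxo1-2, against 63.8 ± 1.52 FPKM in Col-0. Of the listed sensors and factors of the unfolded protein response, IRE1A, BZIP28, BZIP60 and IRE1B had smaller differences than these. The factors NAC062 and NAC103 were also on the list and are not covered by that statement. NAC062, NAC103 or both were among the 14 members higher at least 2-fold. IRE1A differed by 0.996, BZIP28 by 0.85 and BZIP60 by 0.51, of which BZIP60 did not pass when centred (0.15, adjusted p = 0.0524). IRE1B did not pass as deposited (-0.04, adjusted p = 0.7).

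Of 15 tested heat shock genes of 18 listed, 13 were higher, 7 at least 2-fold, beside 51% and 15.4% of all genes (median 0.83, 9 higher and 2 lower when centred). HSP17.4, a small heat shock protein, averaged 6.36 ± 0.717 FPKM in dxo1-2, against 0.737 ± 0.142 FPKM in Col-0. MBF1C, a heat-induced coactivator, stood at 104.83, 111.65 and 107.01 FPKM in dxo1-2, against 27.76, 22.33 and 29.48 FPKM in Col-0 (log2 difference 1.99, SE 0.09, adjusted p = 6.32e-08). HSFA4A, of the heat shock factors, averaged 67.4 ± 3.82 FPKM in dxo1-2, against 16.9 ± 2.28 FPKM in Col-0. HSFA2 and HSFA7A, also heat shock factors, did not pass (-0.20 and -0.28).

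Genes of abscisic acid, dehydration and cold divided. Of 36 tested of 38 listed, 21 were higher and 7 lower, which left 8 that missed the threshold. The median of 0.36 lay close to the 0.25 of all genes. At least 2-fold, however, 12 were higher and 3 lower, beside 15.4% and 3.31% of all genes. In centred libraries 16 were higher and 14 lower. Of these, 11 and 4 differed at least 2-fold, beside 8.49% and 7.94% of all genes. Dehydrins and other late embryogenesis abundant proteins of that list, which protect drying cells, spread over a wide range. Beside AT3G02480 and LEA7, RAB18, a dehydrin, stood at 141.2, 147.98 and 155.98 FPKM in dxo1-2, against 15.66, 17.45 and 13.51 FPKM in Col-0 (log2 difference 3.18, SE 0.09, adjusted p = 2.46e-09). RD29B, a classical abscisic acid response gene, stood at 30.03, 28.99 and 30.63 FPKM in dxo1-2, against 0.87, 1.09 and 1.08 FPKM in Col-0 (log2 difference 3.94, SE 0.08, adjusted p = 5.64e-10), and RD29A averaged 103 ± 8.46 FPKM in dxo1-2, against 28.5 ± 3.19 FPKM in Col-0. The dehydrin LTI30 averaged 70.1 ± 4.23 FPKM in dxo1-2, against 10.3 ± 0.809 FPKM in Col-0. LEA4-5, another late embryogenesis abundant protein gene, differed by 2.61 and the dehydrin ERD10 by 0.56. Of the other dehydrins listed, ERD14 differed by 0.36 but did not pass when centred (0.00, adjusted p = 0.942), and COR47 did not pass as deposited (-0.05) and was lower when centred (-0.41). ZAT12, a zinc finger factor of stress responses, averaged 113 ± 7.33 FPKM in dxo1-2, against 15.4 ± 1.92 FPKM in Col-0. KIN1 averaged 131 ± 4.15 FPKM in dxo1-2, against 10.1 ± 3.72 FPKM in Col-0, while its near-identical copy KIN2 did not pass (1237 ± 59.3 FPKM in dxo1-2, against 1158 ± 51 FPKM in Col-0), and the split of fragments between them is uncertain.

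The lower members of that list included genes of hormone and osmolyte synthesis. P5CS1, the enzyme that limits proline synthesis under stress, stood at 54.79, 52.95 and 55.09 FPKM in dxo1-2, against 213.61, 244.75 and 224.83 FPKM in Col-0 (log2 difference -2.05, SE 0.06, adjusted p = 2.72e-09). NCED3, which limits abscisic acid synthesis, stood at 11.95, 11.55 and 11.14 FPKM in dxo1-2, against 16.67, 16.91 and 16.59 FPKM in Col-0 (log2 difference -0.50, SE 0.06, adjusted p = 6.6e-05). ABF3, a transcription factor of the abscisic acid response, averaged 19.5 ± 0.857 FPKM in dxo1-2, against 32.6 ± 3.81 FPKM in Col-0. CBF1 and CBF2, factors of the cold response with similar sequences, averaged 1.09 ± 0.498 FPKM in dxo1-2, against 3.8 ± 0.627 FPKM in Col-0 and 2.18 ± 0.186 FPKM in dxo1-2, against 6.0 ± 1.18 FPKM in Col-0, and CBF3 did not pass (-0.11). Their known target COR15A was higher (373 ± 9.61 FPKM in dxo1-2, against 149 ± 12 FPKM in Col-0) and its neighbour copy COR15B lower (153 ± 2.71 FPKM in dxo1-2, against 201 ± 15 FPKM in Col-0), again with an uncertain split between close copies. The PP2C phosphatases of the pathway spread around the background, with ABI1 at -0.04 and not passing, ABI2 at 0.36 (0.01, adjusted p = 0.923 when centred) and HAI1 at 0.73.

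Nitrogen genes differed in both directions. AMT1;1, an ammonium transporter, stood at 504.03, 491.29 and 497.45 FPKM in dxo1-2, against 66.22, 63.23 and 61.94 FPKM in Col-0 (log2 difference 2.94, SE 0.04, adjusted p = 7.9e-11). GLN1;1, a cytosolic glutamine synthetase, averaged 151 ± 2.65 FPKM in dxo1-2, against 47.6 ± 1.92 FPKM in Col-0, and NRT1.7, which moves nitrate out of old leaves, averaged 78.9 ± 2.84 FPKM in dxo1-2, against 27.6 ± 0.583 FPKM in Col-0. All 3 asparagine synthetase genes were lower: ASN1 by far the most, then ASN3 (-0.46) and ASN2 (-0.45). The glutamate synthase of leaves, GLU1, averaged 128 ± 9.71 FPKM in dxo1-2, against 203 ± 14.7 FPKM in Col-0, and GLN1;4 averaged 1.7 ± 0.195 FPKM in dxo1-2, against 4.05 ± 0.675 FPKM in Col-0. In all, 7 of 18 nitrogen genes were higher and 7 lower, beside 51% and 21.3% of all genes (median -0.05). When centred 5 were higher and 12 lower.

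Of 23 genes on a list of sugar starvation and branched-chain amino acid breakdown, most of them known to rise when sugar is short, 15 were lower, 6 at least 2-fold, beside 21.3% and 3.31% of all genes, and 4 were higher, with a median of -0.46 (3 higher and 18 lower when centred). Beside DRM1 and ASN1, DIN1, a gene induced by darkness, stood at 12.24, 15.94 and 15.83 FPKM in dxo1-2, against 63.32, 72.28 and 59.49 FPKM in Col-0 (log2 difference -2.08, SE 0.11, adjusted p = 1.3e-07). DIN10, a raffinose synthase family gene, stood at 123.66, 114.58 and 126.14 FPKM in dxo1-2, against 299.79, 327.99 and 296.93 FPKM in Col-0 (log2 difference -1.34, SE 0.05, adjusted p = 3.16e-08). MCCA, a subunit of the enzyme that breaks down leucine, averaged 10.0 ± 0.22 FPKM in dxo1-2, against 24.8 ± 1.34 FPKM in Col-0, while its partner subunit MCCB did not pass (-0.18, adjusted p = 0.0573). The trehalose phosphate synthase homologues TPS8, TPS9, TPS10 and TPS11 were lower (-0.45, -0.73, -0.29 and -0.51), and TPS5 was higher (0.58). STP1, a hexose transporter, averaged 128 ± 2.61 FPKM in dxo1-2, against 213 ± 7.31 FPKM in Col-0. DIN2, a glucosidase gene induced by darkness and sugar shortage, was higher and stood at 3.87, 3.28 and 3.1 FPKM in dxo1-2, against 0.26, 0.47 and 0.35 FPKM in Col-0 (log2 difference 1.7, SE 0.13, adjusted p = 2.08e-06). APL3, a subunit of the starch synthesis enzyme that is known to be induced by sugar, unlike most of the list, was higher too (21.5 ± 0.732 FPKM in dxo1-2, against 9.25 ± 0.687 FPKM in Col-0).

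**Figure D3:**
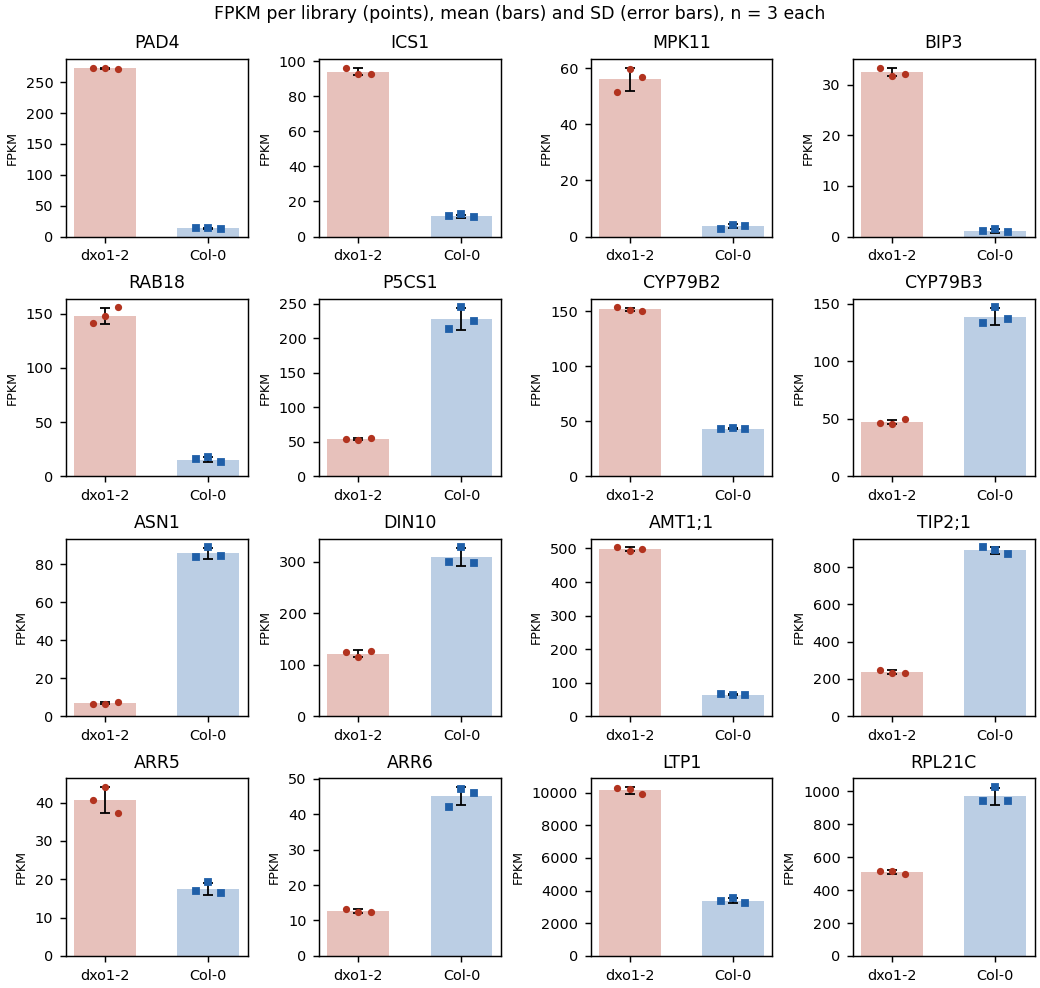
FPKM of 16 genes in dxo1-2 (left, red) and Col-0 (right, blue), with points for libraries, bars for means and error bars for SD (n = 3 each). PAD4, AMT1;1 and LTP1 are higher in dxo1-2, P5CS1, ASN1 and TIP2;1 lower, and the pairs CYP79B2 with CYP79B3 and ARR5 with ARR6 differ in direction.

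Glucosinolates are sulfur-rich defence compounds made from methionine (aliphatic) or tryptophan (indole). Of 14 aliphatic genes 6 were lower and 2 higher, beside 21.3% and 51% of all genes (median -0.12, 1 higher and 12 lower when centred). MAM1, which elongates the methionine chain, stood at 95.33, 92.81 and 99.25 FPKM in dxo1-2, against 208.27, 242.17 and 224.18 FPKM in Col-0 (log2 difference -1.22, SE 0.06, adjusted p = 8.71e-08). CYP83A1, which acts on the aliphatic aldoximes, averaged 102 ± 3.8 FPKM in dxo1-2, against 194 ± 6.59 FPKM in Col-0. BCAT4 and IMD1 of chain elongation differed by -0.54 and -0.63. CYP79F2 was lower (1.44 ± 0.0289 FPKM in dxo1-2, against 2.91 ± 0.301 FPKM in Col-0), whereas its near-identical copy CYP79F1 was higher (0.21) and turned to -0.15 in centred libraries. The master regulator gene MYB28 stood at 23.02, 22.5 and 21.66 FPKM in dxo1-2, against 22.95, 22.63 and 21.66 FPKM in Col-0 and did not pass. SOT17, a sulfotransferase of the last step, was higher (52 ± 4.08 FPKM in dxo1-2, against 25.6 ± 3.14 FPKM in Col-0).

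In the tryptophan and indole list the paired genes at the head of the pathway moved apart. CYP79B2, which turns tryptophan into its aldoxime, stood at 153.73, 150.99 and 150.55 FPKM in dxo1-2, against 43.1, 43.57 and 42.84 FPKM in Col-0 (log2 difference 1.79, SE 0.04, adjusted p = 1.18e-09). CYP79B3, which carries out the same step, stood at 46.72, 45.65 and 49.61 FPKM in dxo1-2, against 133.46, 147.01 and 136.52 FPKM in Col-0 (log2 difference -1.53, SE 0.06, adjusted p = 1.38e-08). The regulator genes parted in the same way: MYB51 averaged 44.3 ± 1.51 FPKM in dxo1-2, against 18.5 ± 1.46 FPKM in Col-0, and MYB34 averaged 8.05 ± 0.251 FPKM in dxo1-2, against 26.2 ± 2.76 FPKM in Col-0. CYP83B1, which takes the pathway towards glucosinolates, averaged 326 ± 2.99 FPKM in dxo1-2, against 149 ± 1.83 FPKM in Col-0, and SOT16, its sulfotransferase, averaged 204 ± 9.21 FPKM in dxo1-2, against 86 ± 7.11 FPKM in Col-0. CYP81F2, which modifies indole glucosinolates for defence, was lower (-0.33). Of 18 tested of 19 listed, 11 were higher and 5 lower (median 0.32), which became 8 and 8 with a median of -0.03 in centred libraries.

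Phenylpropanoid and flavonoid genes make phenolic pigments and sunscreens. Of 22 tested of 27 listed 15 were higher and 3 lower, beside 51% and 21.3% of all genes (median 0.52, 11 higher and 5 lower when centred). TT4, the chalcone synthase that opens flavonoid synthesis, stood at 397.23, 374.33 and 384.06 FPKM in dxo1-2, against 81.56, 84.42 and 79.9 FPKM in Col-0 (log2 difference 2.22, SE 0.04, adjusted p = 3.93e-10). C4H, of the general phenylpropanoid route, averaged 304 ± 4.64 FPKM in dxo1-2, against 97.9 ± 3.34 FPKM in Col-0. UGT78D2, a flavonoid glucosyltransferase, averaged 54.8 ± 1.78 FPKM in dxo1-2, against 16.7 ± 1.09 FPKM in Col-0, and FLS1, the flavonol synthase, averaged 22.1 ± 1.28 FPKM in dxo1-2, against 6.62 ± 0.338 FPKM in Col-0. The lower members were PAL1 (-0.38), the anthocyanin regulator MYB75 (-0.47) and UGT79B1 (-0.49), an anthocyanin glycosyltransferase. UGT79B1 did not pass without dxo1-2 replicate 2 (-0.46, adjusted p = 0.0651), dxo1-2 replicate 3 (-0.36, adjusted p = 0.0921) or Col-0 replicate 2 (-0.38, adjusted p = 0.0963). MYB12, MYB11, MYB90, TT8 and GL3 lay under a mean of 1 FPKM and were not tested.

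Of 16 tested phosphate starvation genes 9 were higher and 4 lower (median 0.24), close to the 51% and 21.3% of all genes and their median of 0.25. At least 2-fold, however, 5 were higher and 0 lower, beside 15.4% and 3.31% of all genes. When centred these were 3 and 1, beside 8.49% and 7.94%. The median of -0.12 with 5 higher and 7 lower in centred libraries had the other sign. PAP17, an acid phosphatase induced by phosphate shortage and in senescence, stood at 54.53, 54.24 and 49.17 FPKM in dxo1-2, against 8.1, 7.32 and 6.58 FPKM in Col-0 (log2 difference 2.69, SE 0.08, adjusted p = 4.82e-09). PS2, a phosphatase, averaged 3.82 ± 0.80 FPKM in dxo1-2, against 0.42 ± 0.178 FPKM in Col-0, and the phosphate transporter PHT1;4 averaged 6.31 ± 0.535 FPKM in dxo1-2, against 1.6 ± 0.085 FPKM in Col-0. PHO1, which exports phosphate, averaged 1.53 ± 0.136 FPKM in dxo1-2, against 3.45 ± 0.333 FPKM in Col-0, SQD2 of sulfolipid synthesis differed by -0.64 and MGD2 of galactolipid synthesis by -0.52. Of 19 tested iron genes of 27 listed, 11 were higher, a share near the 51% of all genes, and 1 lower (median 0.37, 6 higher and 5 lower when centred). At least 2-fold, 5 were higher and 0 lower as deposited, and 3 and 0 when centred. The higher ones included NAS3, a nicotianamine synthase (37 ± 2.05 FPKM in dxo1-2, against 12.1 ± 0.422 FPKM in Col-0), OPT3, a phloem transporter that takes part in iron signalling (91.5 ± 3.49 FPKM in dxo1-2, against 33.6 ± 1.97 FPKM in Col-0), and AT2G30766 (12.3 ± 0.732 FPKM in dxo1-2, against 2.15 ± 1.51 FPKM in Col-0). FER4, a ferritin, was the lower one (74.5 ± 2.0 FPKM in dxo1-2, against 93.9 ± 5.75 FPKM in Col-0). IRT1, the iron importer of roots, lay under the threshold: it was listed at 0 in all 3 dxo1-2 libraries, against 0.75, 0.55 and 1.03 FPKM in Col-0.

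Nuclear genes for the ribosome of the chloroplast were lower without exception among those listed, over a narrow range. Of 20 genes 20 were lower, where the background was 21.3%, with a median of -0.70. Their differences ran from -0.92 to -0.22, and 20 were lower in centred libraries (median -1.06, 14 at least 2-fold). RPL21C stood at 515.88, 517.07 and 496.97 FPKM in dxo1-2, against 940.92, 1026.31 and 938.5 FPKM in Col-0 (log2 difference -0.92, SE 0.04, adjusted p = 7.81e-08). RPL24 stood at 470.51, 488.43 and 477.76 FPKM in dxo1-2, against 803.65, 926.89 and 817.54 FPKM in Col-0 and EMB3105 averaged 402 ± 8.57 FPKM in dxo1-2, against 697 ± 13.7 FPKM in Col-0. The smallest differences, at RPL27, PRPS17 (-0.28) and RPL15 (-0.32), still had groups that did not overlap.

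Photorespiration, which salvages the product of oxygenation by Rubisco, and starch metabolism had smaller median differences than the ribosome list. Of 15 photorespiration genes 10 were lower and 2 higher, beside 21.3% and 51% of all genes (median -0.28). GLYK, the glycerate kinase that closes the cycle, stood at 120.7, 117 and 116.14 FPKM in dxo1-2, against 180.84, 201.73 and 181.54 FPKM in Col-0 (log2 difference -0.67, SE 0.05, adjusted p = 2.26e-06), SHM1, a mitochondrial serine hydroxymethyltransferase, averaged 838 ± 19.9 FPKM in dxo1-2, against 1282 ± 52.4 FPKM in Col-0 and AT1G32470 averaged 411 ± 13.3 FPKM in dxo1-2, against 612 ± 15.8 FPKM in Col-0. The higher pair GOX1 and GOX2, near-identical glycolate oxidases, differed by 0.12 and 0.09 and turned to -0.23 and -0.26 when centred, where 15 of 15 were lower. GOX1 did not pass without dxo1-2 replicate 1 (0.10, adjusted p = 0.0725), Col-0 replicate 1 (0.10, adjusted p = 0.0802) or Col-0 replicate 3 (0.11, adjusted p = 0.0573). GOX2 passed only without Col-0 replicate 2 when single libraries were left out, and its adjusted p was 0.0616 to 0.128 without any other library. Of 19 starch genes 11 were lower and 4 higher, beside the same shares (median -0.18, 15 lower when centred). SS3, a starch synthase, stood at 8.68, 8.68 and 9.78 FPKM in dxo1-2, against 21.7, 23.44 and 22.58 FPKM in Col-0 (log2 difference -1.23, SE 0.07, adjusted p = 2.98e-07), DPE1, which processes short glucans, averaged 19.5 ± 0.423 FPKM in dxo1-2, against 32.7 ± 0.445 FPKM in Col-0 and APL1, a subunit of ADP-glucose pyrophosphorylase, averaged 93.3 ± 2.37 FPKM in dxo1-2, against 150.3 ± 13.1 FPKM in Col-0. ISA3 (0.40), SEX4 (0.39), APS1 (0.39) and BAM1 (0.37) were the higher ones as deposited, with differences of 0.02 to 0.04 when centred and of -0.04 (BAM1) to 0.00 (ISA3) after quantile normalization.

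Aquaporins are channels of the plasma membrane (PIP) or the vacuole (TIP). Of 17 aquaporin genes 11 were lower, 3 at least 2-fold, beside 21.3% and 3.31% of all genes, and 4 were higher (median -0.43, 2 higher and 14 lower when centred). TIP2;1 stood at 249.91, 233.76 and 232.41 FPKM in dxo1-2, against 906.21, 893.4 and 871.62 FPKM in Col-0 (log2 difference -1.9, SE 0.04, adjusted p = 7.18e-10). PIP1;5 stood at 118.22, 117.93 and 110.68 FPKM in dxo1-2, against 330.27, 361.87 and 336.6 FPKM in Col-0 (log2 difference -1.56, SE 0.05, adjusted p = 6.3e-09), and PIP2;4 averaged 1.51 ± 0.439 FPKM in dxo1-2, against 4.48 ± 0.546 FPKM in Col-0. PIP1;4 was higher, at 325.03, 332.78 and 326.21 FPKM in dxo1-2, against 154.23, 160.7 and 154.96 FPKM in Col-0 (log2 difference 1.06, SE 0.04, adjusted p = 1.42e-08). PIP2;3 was higher (0.87) and its near-identical copy PIP2;2 did not pass (0.01), with an uncertain split, and PIP2;5 was higher by 0.43 as deposited but did not pass when centred (0.08, adjusted p = 0.429) or after quantile normalization (0.09, adjusted p = 0.389). Expansins and xyloglucan transferases (XTH) loosen or remodel walls in growing cells, and 10 of 18 were lower and 5 higher (median -0.28, 1 higher and 14 lower when centred). XTH8 averaged 6.14 ± 0.55 FPKM in dxo1-2, against 16.2 ± 1.06 FPKM in Col-0, EXPB1 9.45 ± 1.03 FPKM in dxo1-2, against 19.5 ± 1.38 FPKM in Col-0 and EXPA3 20.4 ± 1.58 FPKM in dxo1-2, against 36.1 ± 2.03 FPKM in Col-0. XTH24 was higher (233 ± 9.71 FPKM in dxo1-2, against 132 ± 5.03 FPKM in Col-0), while EXPA6 was higher by 0.23 and turned to -0.13 when centred. XTH22 was higher as deposited (0.42) but did not pass when centred (0.07, adjusted p = 0.0872) or after quantile normalization (0.06, adjusted p = 0.0927).

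Hormone genes of growth were divided, with more members lower. Of 20 auxin genes 12 were lower and 7 higher, beside 21.3% and 51% of all genes (median -0.31, 3 higher and 13 lower when centred). IAA29, an auxin-induced repressor gene also known from shade responses, stood at 1.09, 1.24 and 1.05 FPKM in dxo1-2, against 4.82, 3.5 and 3.4 FPKM in Col-0 (log2 difference -1.2, SE 0.14, adjusted p = 3.14e-05), and IAA14 averaged 13.2 ± 0.924 FPKM in dxo1-2, against 27.7 ± 2.46 FPKM in Col-0. The related factors ARF7 and ARF19 moved apart, with ARF7 at 20.32, 18.14 and 19.72 FPKM in dxo1-2, against 9.65, 10.09 and 9.9 FPKM in Col-0 and ARF19 at 3.44, 3.11 and 3.69 FPKM in dxo1-2, against 5.7, 6.26 and 6.73 FPKM in Col-0. GH3.3, an enzyme that conjugates auxin, averaged 13.1 ± 0.611 FPKM in dxo1-2, against 5.04 ± 0.375 FPKM in Col-0, and IAA2 averaged 277 ± 7.43 FPKM in dxo1-2, against 121 ± 8.0 FPKM in Col-0. Of 8 tested type-A response regulators, early cytokinin response genes, 5 were lower and 2 higher (median -0.51, 1 higher and 5 lower when centred). ARR6 stood at 13.2, 12.52 and 12.26 FPKM in dxo1-2, against 42.12, 47.01 and 46.09 FPKM in Col-0 (log2 difference -1.75, SE 0.06, adjusted p = 1.59e-08), ARR15 averaged 1.16 ± 0.567 FPKM in dxo1-2, against 6.83 ± 0.868 FPKM in Col-0 and ARR9 averaged 13.2 ± 0.606 FPKM in dxo1-2, against 32.5 ± 2.36 FPKM in Col-0. ARR5, the closest relative of ARR6, stood at 40.68, 44.09 and 37.38 FPKM in dxo1-2, against 16.83, 19.19 and 16.31 FPKM in Col-0 (log2 difference 1.18, SE 0.08, adjusted p = 9.96e-07), and ARR4 was higher by 0.38 as deposited but did not pass when centred (0.03, adjusted p = 0.601) or after quantile normalization (0.01, adjusted p = 0.794).

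Of 14 tested brassinosteroid and gibberellin genes 6 were lower and 4 higher (median -0.10, 3 higher and 10 lower when centred). BR6OX2, which makes the active brassinosteroid, averaged 18.4 ± 0.908 FPKM in dxo1-2, against 4.26 ± 0.896 FPKM in Col-0 (log2 difference 1.9, SE 0.12, adjusted p = 5.2e-07). The DELLA repressor genes did not move together. RGL3 stood at 2.74, 2.74 and 2.35 FPKM in dxo1-2, against 8.9, 10.04 and 8.79 FPKM in Col-0 (log2 difference -1.5, SE 0.09, adjusted p = 4.96e-07), RGL2 was higher (2.86 ± 0.145 FPKM in dxo1-2, against 0.97 ± 0.0954 FPKM in Col-0), RGL1 was lower (-0.57), and GAI and RGA did not pass (0.02 and 0.08). BAS1, which inactivates brassinosteroids, averaged 3.08 ± 0.176 FPKM in dxo1-2, against 6.56 ± 0.581 FPKM in Col-0, DWF4 of their synthesis was lower (-0.63) and the response factor gene BZR1 was higher (0.71).

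Autophagy delivers cell contents to the vacuole, with ATG8 proteins on the forming membrane. Of 26 genes 17 were higher, 4 at least 2-fold, beside 51% and 15.4% of all genes, and 5 were lower (median 0.61). When centred 11 were higher, 2 at least 2-fold, and 9 lower. Members of the ATG8 family moved in both directions. ATG8A stood at 99.03, 99.64 and 93.06 FPKM in dxo1-2, against 31.15, 31.61 and 33.79 FPKM in Col-0 (log2 difference 1.57, SE 0.05, adjusted p = 1.09e-08), ATG8I averaged 169 ± 13.1 FPKM in dxo1-2, against 62.7 ± 1.97 FPKM in Col-0 and ATG8B 22.9 ± 0.335 FPKM in dxo1-2, against 9.67 ± 2.05 FPKM in Col-0, whereas ATG8F stood at 146.17, 161.69 and 165.33 FPKM in dxo1-2, against 233.08, 245.1 and 237.05 FPKM in Col-0 (log2 difference -0.59, SE 0.05, adjusted p = 5.78e-06) and ATG8E was lower (-0.22). ATG4A was lower too (-0.21). NBR1, a cargo receptor, averaged 167 ± 2.35 FPKM in dxo1-2, against 92 ± 3.69 FPKM in Col-0.

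Of 11 tested genes of cuticle wax and lipid transfer 5 were higher and 5 lower, with a median of 0.07 that became -0.28 in centred libraries (3 higher and 6 lower). LTP1, a lipid transfer protein of the epidermis, stood at 10301.5, 10219.2 and 9918.12 FPKM in dxo1-2, against 3382.48, 3535.99 and 3254.73 FPKM in Col-0 (log2 difference 1.58, SE 0.04, adjusted p = 1.18e-09). LTP2 averaged 444 ± 5.39 FPKM in dxo1-2, against 74.4 ± 3.94 FPKM in Col-0, and CER1 of alkane synthesis was higher by 0.48 (0.12, adjusted p = 0.0496 when centred, and not passing after quantile normalization, 0.08, adjusted p = 0.171). CER3, the partner of CER1 in that step, was lower (33.2 ± 0.773 FPKM in dxo1-2, against 53.7 ± 0.83 FPKM in Col-0), as were LACS2 (-0.45) and KCS1 (-0.29), both of fatty acid supply to the cuticle.

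**Figure D4:**
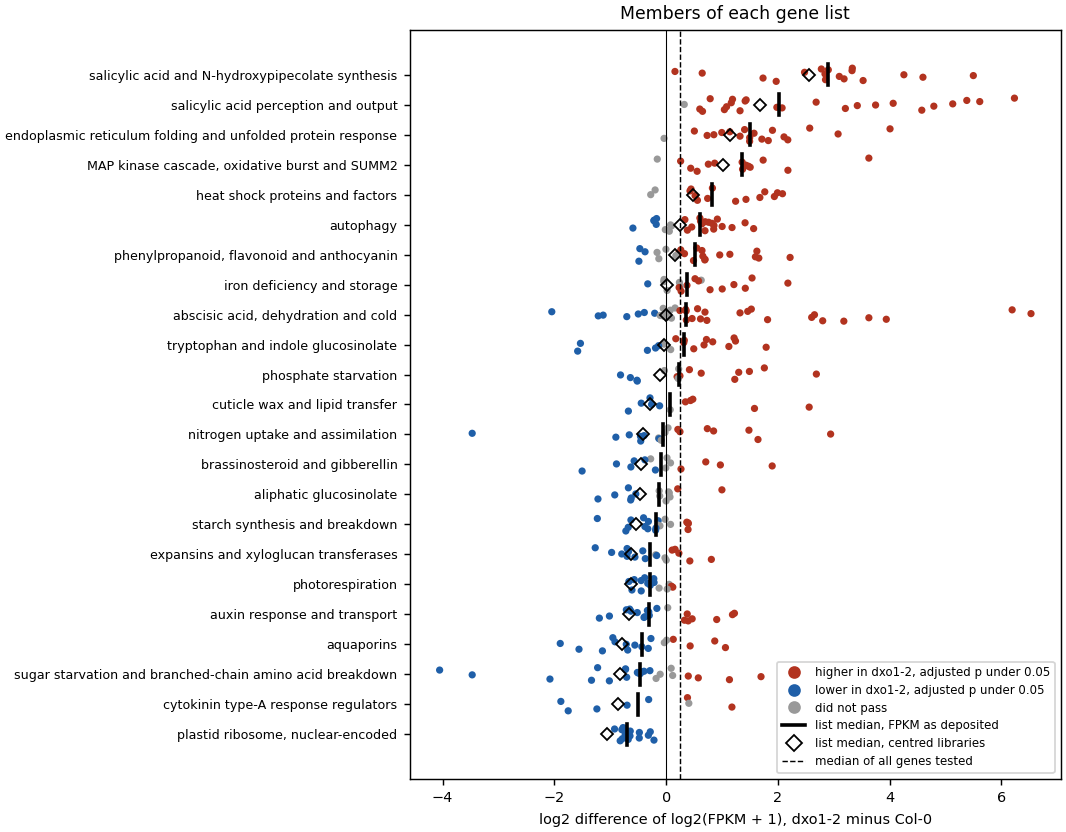
Log2 difference, dxo1-2 minus Col-0, of each tested member of the 23 gene lists (points, x axis), ordered by list median (black bars) with the median in centred libraries as open diamonds. Medians run from 2.90 for salicylic acid and N-hydroxypipecolate synthesis to -0.70 for the plastid ribosome, around a median of 0.25 for all genes (dashed line).

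Marker genes of leaf cell types were present in both groups, as the label rosette leaves calls for. The 4 mesophyll markers summed to 58609 to 60108 FPKM in dxo1-2 libraries and 91690 to 97061 FPKM in Col-0 libraries, and all 4 were lower: RBCS1A (-0.56), RCA (-0.73, -0.10 after quantile normalization), LHCB1.1 (-0.48, 0.11 after quantile normalization) and LHCB1.3 (-0.81). Quantile normalization, which sets the most abundant genes of each library to common values, left RBCS1A at 0.00 and LHCB1.3 at 0.00, with a list median of 0, and all 4 were lower in centred libraries. Of these markers RBCS1A and the LHCB1 genes have near-identical copies. The 5 guard cell markers summed to 41.8 to 44.2 FPKM in dxo1-2, against 26.5 to 33.6 FPKM in Col-0, with MYB60 at 1.16, KAT1 at 0.46, OST1 at 0.45 and FAMA at -0.51. As deposited 3 of the 5 were higher and 1 lower, and when centred 1 was higher and 1 lower, where neither KAT1 (0.11, adjusted p = 0.296) nor OST1 (0.09, adjusted p = 0.378) passed. Of the 5 vascular markers the phloem gene SUC2 was higher (0.38) but did not pass when centred (0.03, adjusted p = 0.593) or after quantile normalization (-0.02, adjusted p = 0.596), and the xylem genes CESA4 (-0.66), XCP1 (-0.63), CESA7 (-0.37) and CESA8 (-0.33) were lower, also when centred. CESA7 did not pass without dxo1-2 replicate 1 (-0.32, adjusted p = 0.0782), Col-0 replicate 2 (-0.31, adjusted p = 0.0766) or Col-0 replicate 3 (-0.35, adjusted p = 0.0718), nor CESA8 without dxo1-2 replicate 2 (-0.31, adjusted p = 0.0569) or Col-0 replicate 2 (-0.30, adjusted p = 0.0542). The vascular sums were 106.8 to 108.8 FPKM in dxo1-2 and 91.2 to 91.5 FPKM in Col-0. The 4 epidermis and trichome markers summed to 188.1 to 200.3 FPKM in dxo1-2 and 201.9 to 215.5 FPKM in Col-0, with ATML1 lower (-0.35) and GL2 higher (0.34, -0.02, adjusted p = 0.825 when centred). Of the root markers COBL9 was near 0 in all libraries, PYK10 was lower (-0.58) and SCR higher (0.75), and the 3 summed to 307.9 to 343.6 FPKM in dxo1-2 and 460.0 to 500.4 FPKM in Col-0. STM, a shoot meristem gene, averaged 3.3 ± 0.665 FPKM in dxo1-2, against 0.69 ± 0.324 FPKM in Col-0 (log2 difference 1.35, SE 0.17, adjusted p = 7.51e-05), and the 10 markers of meristem and flower, 8 of them under the filter, summed to 5.93 to 7.98 FPKM in dxo1-2 and 2.43 to 4.17 FPKM in Col-0. The 4 seed markers summed to at most 0.32 FPKM in dxo1-2 and 0.52 FPKM in Col-0 libraries. The plastid ribosome, photorespiration and aquaporin lists were lower as deposited, as was the mesophyll sum. After quantile normalization their medians were -0.99, -0.52 and -0.70, beside 0 for the mesophyll markers. The part of the mesophyll in these lists was not tested.

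The size of the difference changed with gene length. The median log2 difference was 0.43 over 1684 genes of 500 to 750 bases, 0.29 over 4814 genes of 1000 to 1500 bases and 0.09 over 1495 genes longer than 3000 bases. At least 2-fold higher were 23.2% of the genes of 500 to 750 bases and 5.62% of those over 3000 bases. The steps between low FPKM values put the mean fragment length at 375 to 380 bases in the dxo1-2 libraries, against 320, 375 and 320 bases in Col-0 replicates 1, 2 and 3. Against Col-0 replicate 2 alone, which shares the fragment length of dxo1-2, the same medians were 0.40, 0.25 and 0.00, and the median of all genes was 0.19. With that library as the one Col-0 sample, all the spread in the fit came from the 3 dxo1-2 libraries, and the lone library was assumed to vary as they do. Under that assumption 7775 genes passed as higher and 3605 as lower, 2624 and 686 of them at least 2-fold. Col-0 replicate 2 exceeded the mean of replicates 1 and 3 by a median of 0.05, 0.09 and 0.12 in the same length classes.

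**Figure D5:**
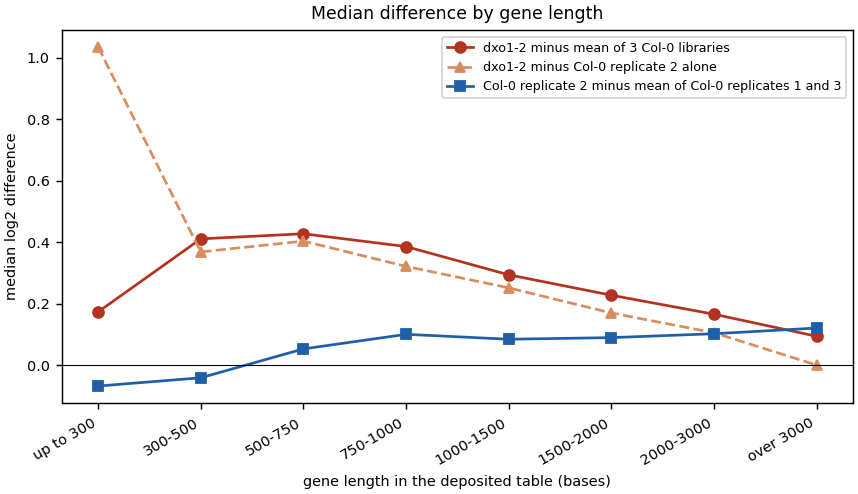
Median log2 difference (y axis) by gene length in bases (x axis), for dxo1-2 minus the mean of Col-0 (red circles), dxo1-2 minus Col-0 replicate 2 alone (orange triangles) and Col-0 replicate 2 minus the mean of Col-0 replicates 1 and 3 (blue squares). Both dxo1-2 curves fall between 500 and over 3000 bases, and the class of up to 300 bases holds 55 genes and differs most between them, at 0.17 for red and 1.03 for orange.

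Set beside the libraries labelled dxo1-1 in a fit over 9 libraries, dxo1-2 was higher at 4131 genes (22.5%) and lower at 2808 (15.3%). At least 2-fold higher in dxo1-2 were 66 genes (0.359%) and at least 2-fold lower 263 (1.43%). With no filter on low values these were 53 and 306. The genes tested were those kept by their mean over dxo1-2 and Col-0. Genes with mRNA only in the libraries labelled dxo1-1 were thus left out. DXO1 stood at 6.67, 5.88 and 7.64 FPKM in dxo1-2, against 192.71, 195.46 and 248.56 FPKM in the libraries labelled dxo1-1 (log2 difference -4.78, SE 0.11, adjusted p = 1.6e-09). DXO1 averaged 212 FPKM in those libraries, against 10.9 FPKM in Col-0, although they carry a mutant label. A value per gene does not show from where along the transcript the fragments came, and the cause of this level was not tested. PR1 averaged 4247 FPKM in those libraries, against 59.7 FPKM in Col-0, and ASN1 7.16 FPKM, against 85.8 FPKM, both on the side of dxo1-2. The RefSeq neighbour AT4G17616 stood at 5.04, 4.96 and 4.67 FPKM in dxo1-2, against 1.56, 1.67 and 1.57 FPKM (log2 difference 1.18, SE 0.09, adjusted p = 5.4e-06). The genes lowest in dxo1-2 beside DXO1 were CYP82C2, a cytochrome P450 of defence metabolism (1.96, 1.63 and 2.6 FPKM in dxo1-2, against 41.72, 41.82 and 39.22 FPKM in the libraries labelled dxo1-1, log2 difference -3.79, SE 0.14, adjusted p = 3.61e-08), and TPX2 (AT1G65970), a thioredoxin-dependent peroxidase (23.94, 18.63 and 16.43 FPKM in dxo1-2, against 247.49, 236.93 and 218.54 FPKM, log2 difference -3.52, SE 0.15, adjusted p = 7.13e-08). AT4G12735 stood at 10.98, 7 and 6.51 FPKM in dxo1-2, against 60.93, 59.74 and 54.12 FPKM (-2.72), and AT1G79075, a noncoding RNA gene by RefSeq, at 21.68, 0.38 and 6.82 FPKM in dxo1-2, against 40.54, 54.34 and 48.38 FPKM in the libraries labelled dxo1-1 (-2.95). DRM1 was lower in dxo1-2 than there as well (16.41, 18.67 and 24.36 FPKM, against 91.74, 87.68 and 125.26 FPKM, log2 difference -2.3, SE 0.14, adjusted p = 9.7e-07).

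The 5 highest genes of that comparison had no shared list. AT2G11410, a pseudogene by RefSeq, stood at 8.66, 8.24 and 8.47 FPKM in dxo1-2, against 0.03, 0 and 0.01 FPKM in the libraries labelled dxo1-1 and 0.01, 0.03 and 0.01 FPKM in Col-0 (log2 difference 3.22, SE 0.11, adjusted p = 2.08e-08 against dxo1-1). Its neighbour AT2G11405 stood at 6.67, 6.75 and 4.29 FPKM in dxo1-2 and was listed at 0 in the other 6 libraries. MAF5, a relative of the flowering repressor FLC, stood at 8.06, 6.42 and 6.34 FPKM in dxo1-2, against 0.33, 0 and 0.38 FPKM in the libraries labelled dxo1-1 (log2 difference 2.69, SE 0.16, adjusted p = 5.67e-07) and 2.65, 3.87 and 3.26 FPKM in Col-0. AT1G67785, of 223 bases, stood at 136.65, 143.33 and 210.67 FPKM in dxo1-2, against 0, 0 and 45.53 FPKM, and the chloroplast ribosomal RNA gene RRN23S.1 at 100.88, 833.21 and 430.38 FPKM in dxo1-2, against 25.33, 97.29 and 65.97 FPKM. Both spread widely within groups (log2 difference 5.49, SE 1.66, adjusted p = 0.0235 at AT1G67785, and log2 difference 2.57, SE 0.76, adjusted p = 0.0208 at RRN23S.1). AT1G67785 did not pass without any 1 of the dxo1-2 replicates 1, 2 or 3 (adjusted p = 0.0534, 0.0558 and 0.0696) or without dxo1-1 replicate 1 or 2 (adjusted p = 0.083 and 0.0849). RRN23S.1 did not pass without dxo1-2 replicate 2 (1.91, adjusted p = 0.0825), dxo1-2 replicate 3 (2.39, adjusted p = 0.0705) or dxo1-1 replicate 1 (2.03, adjusted p = 0.0777).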

How the data were processed

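The authors deposited a table of FPKM per gene for 9 mRNA libraries, which was used as given. Per the submitters' processing notes, TopHat2 2.1.0, RSEM 2.1.30 and the TAIR10 build were named. Neither their roles nor the strandedness of counting is given in the sources used. The gene lengths used for length classes are those of the deposited table. Names came from RefSeq (TAIR10.1), which matched 32835 of 33602 locus tags. Its start positions gave the gene order for the neighbours of DXO1, and no sequences were used. Columns were assigned by their names in the table.

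From these values, limma 3.58.1 with a mean-variance trend (R 4.3.3) was fitted to log2(FPKM + 1) of the 3 dxo1-2 and 3 Col-0 libraries for the 18362 genes at a mean of at least 1 FPKM, with Benjamini-Hochberg adjustment over all of them. The comparison with the libraries labelled dxo1-1 came from a fit over 9 libraries, on the same 18362 genes, whose filter did not use the dxo1-1 values. The genes named were the 12 highest and 12 lowest among those that passed with groups that did not overlap, the 3 highest and 3 lowest of each list that passed, the 5 highest and 5 lowest against dxo1-1, DXO1 and its neighbours. Other list members were named after their values were seen. The members and gene lists were chosen with earlier results of these data known.

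Depth and mean fragment length were estimated from FPKM steps of genes of 550 to 1300 bases at 0.04 to 0.6 FPKM, where 91.7% to 96.4% of values came out within 0.1 of a whole fragment, as a description and with no count test. Alternatives were median centring, quantile normalization, a pseudocount of 0.1, no filter, a filter at 5 FPKM, a fit over 9 libraries, a replicate block, Col-0 replicate 2 alone and each library left out. The fit was checked on simulated data in which few genes changed and the libraries had no common shift. That check cannot speak to the scaling of the libraries. The 12 small RNA libraries were not used here.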

Additional observations from a re-analysis of the deposited data

Results flagged for a closer look

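In the 9 mRNA libraries, 22 genes of the text differed between dxo1-2 and the libraries labelled dxo1-1. The criterion was an adjusted p under 0.05 in the limma test of that difference, and at least 2-fold. Of all 18362 genes, 0.359% were higher and 1.43% lower in dxo1-2 by it. Many of the 22 were named because of this same difference, or by a rule that used the dxo1-1 values. Their number is thus no measure of how often the 2 lines differ. On the log2(FPKM + 1) scale, dxo1-2 minus dxo1-1, DXO1 differed by -4.78 and its neighbour AT4G17616 by 1.18. Lower in dxo1-2 were also CYP82C2 (-3.79), TPX2 (-3.52), AT1G79075 (-2.95), AT4G12735 (-2.72), DIN11 (-2.5), AT5G46890 (-2.44), AT4G12520 (-2.19), AT5G46900 (-1.5), FMO1 (-2.4), DRM1 (-2.3), PER45 (-1.7), LTP2 (-1.47) and UGT76B1 (-1.08). Higher in dxo1-2 were AT1G67785 (5.49), AT2G11410 (3.22), AT2G11405 (2.77), MAF5 (2.69), RRN23S.1 (2.57), AT3G12960 (2.06) and RD29B (1.41).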

How the results depend on the processing

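The counts of genes higher and lower in dxo1-2 than in Col-0 depended on the scaling of the libraries. As deposited they were 9361 and 3916, in centred libraries 5805 and 7846, and after quantile normalization 6031 and 7434. At least 2-fold, 2834 were higher and 608 lower as deposited, 1559 and 1458 when centred, and 1622 and 1337 after quantile normalization. Against the libraries labelled dxo1-1, a pseudocount of 0.1 gave 161 genes at least 2-fold higher in place of 66, and a filter at 5 FPKM gave 150 lower in place of 263. Leaving out each library in turn gave 8827 to 9540 higher and 3523 to 3863 lower genes against Col-0, 2741 to 2978 and 575 to 629 at least 2-fold. DXO1 ranged over -0.71 to -0.55 with single libraries left out. Its difference was -0.98 in centred libraries, -0.95 after quantile normalization and -0.75 against Col-0 replicate 2 alone. With replicate number as a block, 9302 genes were higher and 3870 lower. Libraries with the same number deviated together at r = 0.093, -0.0204 and -0.0273, and not every library correlated best with its own number, so the numbers were not taken to pair the samples. Of 3636 alternative values of single genes, 3484 kept direction and side of the threshold, 76 lost the call, 36 gained it and 40 changed sign. Some settings could not move the difference itself, such as the replicate block or a Col-0 library left out against dxo1-1. The count is thus no measure of how firm the differences are.

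Sign changes in centred libraries were those of UGT74F2 (-0.20), TGA6 (-0.030), CYP79F1 (-0.15), EXPA6 (-0.13), GOX1 (-0.23), GOX2 (-0.26), GL2 (-0.018), AT4G17616 (-0.042), CKB2 (-0.24), KIN2 (-0.26), GAI (-0.34), RGA (-0.28) and PIP2;2 (-0.34). Among genes that did not pass as deposited, IRE1B (-0.39), HSFA2 (-0.55), HSFA7A (-0.63), ABI1 (-0.40), CBF3 (-0.46), MYB28 (-0.36) and MCCB (-0.53) passed as lower when centred, as did CKB2, KIN2, GAI, RGA and PIP2;2. After quantile normalization sign changes were UGT74F2 (-0.25), CYP79F1 (-0.17), EXPA6 (-0.16), GOX1 (-0.068), GOX2 (-0.16), SUC2 (-0.024), LHCB1.1 (0.11), SEX4 (-0.0053), APS1 (-0.00037), BAM1 (-0.038), CKB2 (-0.28), KIN2 (-0.014), GAI (-0.38), RGA (-0.31) and PIP2;2 (-0.36). List medians turned, centred and quantile, for tryptophan and indole (-0.034 and -0.051), phosphate (-0.12 and -0.064), wax (-0.28 and -0.32) and root markers (-0.27 and -0.23). The root median was also -0.17 with no filter and -0.0082 against Col-0 replicate 2 alone, where GAI was -0.051 and PIP2;2 -0.015. The brassinosteroid and gibberellin median was 0.015 with the filter at 5 FPKM. Over single libraries left out, genes that did not pass crossed 0: ABI1 ran over -0.079 to 0.0067, CBF3 over -0.18 to 0.038, COR47 over -0.099 to 0.011, GAI over -0.021 to 0.048, MYB28 over -0.025 to 0.022 and PIP2;2 over -0.0041 to 0.021. The cause of these shifts was not tested.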

Other observations

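Some genes lay far apart in dxo1-2 from both other groups, by a rule chosen after values were seen: at least 1 FPKM in each library of the higher side, and in every library of the lower side under 0.25 of the lowest of these. Above both Col-0 and the libraries labelled dxo1-1 were 3 genes. AT2G11405 and its neighbour AT2G11410 are described above, and AT3G12960, which RefSeq names SMP1, stood at 2.52, 2.54 and 4.83 FPKM in dxo1-2 and was listed at 0 in the other 6 libraries. Below both were 6 genes, among them PER45 (AT4G30170), a class III peroxidase, at 0.56, 0.39 and 0.65 FPKM in dxo1-2, against 4.83, 3.54 and 3.67 FPKM in the libraries labelled dxo1-1 and 4.66, 4.02 and 3.74 FPKM in Col-0. AT5G46900, beside AT5G46890, was listed at 0 in dxo1-2, against 1.32, 2.33 and 1.94 FPKM in the libraries labelled dxo1-1 and 4.26, 4.49 and 4.34 FPKM in Col-0. DIN11 (AT3G49620) stood at 1.93, 2.16 and 2.02 FPKM in dxo1-2, against 14.83, 17.02 and 16.85 FPKM in the libraries labelled dxo1-1 and 10.19, 12.17 and 10.13 FPKM in Col-0. AT4G12520 stood at 0, 0.18 and 0.17 FPKM in dxo1-2, against 6.44, 3.73 and 2.69 FPKM in the libraries labelled dxo1-1 and 5.75, 7.1 and 6.97 FPKM in Col-0. The other members were AT5G46890 and AT1G23720, of which AT1G23720 lay under a mean of 1 FPKM over dxo1-2 and Col-0 and was not tested.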
